A study of Bos taurus with 9 samples.

Results

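The genes described here are PRG4, VIT and TPR, 3 of 9155 named genes, which were read by 7 of the 24016 probe sets of a bovine expression array. A probe set is a group of short probes that together give 1 value for a transcript. The members were all probe sets whose only gene symbol in the platform annotation was PRG4 (4 probe sets), VIT (1) or TPR (2), out of 13292 probe sets with a single symbol, and each was kept apart. All 7 were tested, and none was removed by a filter. RNA came from cells of 3 calves aged 3 to 6 months and was hybridised to 9 arrays, 1 per sample and 3 per group. The groups were undifferentiated mesenchymal stem cells (MSCs) of the bone marrow, collected as soon as they had been embedded in agarose (day 0), the same kind of cells after 28 days in agarose (day 28, called chondrogenic in the labels), and chondrocytes of articular cartilage after 28 days in agarose. Both day 28 groups were kept in chemically defined medium with 10 ng/mL TGF-beta3, a growth factor that induces cartilage formation, and every group was in agarose. The calves were matched, so that each gave 1 sample to each group. No chondrocytes at day 0 and no cells cultured without TGF-beta3 were analysed here, and the labels do not say which depth of the cartilage the chondrocytes came from.

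PRG4 encodes lubricin, also called superficial zone protein. It is a secreted mucin-like glycoprotein whose central part carries many O-linked sugars and which coats the surfaces of joints, tendons and menisci, where it lowers friction and keeps cells from attaching. In a joint it is made by chondrocytes of the surface layer and by the lining cells of the synovium, and TGF-beta is known to raise its synthesis in surface chondrocytes. VIT encodes vitrin, a matrix glycoprotein with von Willebrand factor A (vWA) and LCCL domains that has been used as a marker of the surface layer of cartilage. TPR encodes a large coiled-coil protein of the nuclear basket, the part of the nuclear pore that faces the chromatin, and has no special link to joints.

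TPR is included because it lies next to PRG4. TPR was added for 1 probe set that did not go with the other TPR probe set, so that its split is a description throughout. By the gene order in RefSeq's table for ARS-UCD2.0, both genes are on chromosome 16 with no coding gene between them, and their annotated ranges overlap at one end. The probe set names point the same way. A probe set name on this array holds the number of the transcript cluster it was designed from, and 4 probe sets carry the cluster number 22987: 3 are annotated to PRG4 (Bt.22987.1.S1_at, Bt.22987.2.A1_at and Bt.22987.2.S1_at) and 1 to TPR (Bt.22987.1.A1_at). The other PRG4 probe set (Bt.1386.1.S1_at), the other TPR probe set (Bt.16524.1.A1_at) and the VIT probe set (Bt.9421.1.S1_at) come from clusters of their own. Of 2153 clusters with at least 2 probe sets of a single symbol, 98 (4.55%) hold more than 1 symbol. Probe sequences were not used here, so which transcripts each probe set binds was not tested.

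Values are given as deposited, on a log2 scale, so that a step of 1 is a doubling of signal. They compare samples within a probe set and not one probe set with another. The samples are bulk RNA, so fewer cells that make a transcript and less of it per cell cannot be told apart. Of 9 measured chondrocyte markers, 8 were higher in each day 28 group than in day 0 MSCs. With each gene read by its probe set of highest mean, 13.5% of all genes were higher in day 28 MSCs and 21.0% lower. For chondrocytes against day 0 MSCs these shares were 15.1% and 20.9%. The markers thus set day 28 apart from day 0 but not the day 28 groups from each other. Only CNMD, which encodes chondromodulin, was higher in chondrocytes than in day 28 MSCs (3.93 ± 0.35). In that comparison 8.35% of all genes were higher and 4.81% lower. Of 9 markers of marrow stromal cells, MCAM (-1.90 ± 0.35) and ALCAM (-1.43 ± 0.27) were lower in chondrocytes than in day 28 MSCs. NT5E (0.92 ± 0.20) was higher, beside the same shares of all genes. Detection calls were not analysed here, so whether low values exceed background was not tested, and no fold is given against them. The hybridisation control bioC averaged 8.80 on the 2 arrays of donor 3 at day 28 and 11.66 on the other 7, and calls that change without those 2 arrays are given below.

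PRG4 signal from cluster 22987 was high in chondrocytes and low in MSCs at either time. For Bt.22987.2.S1_at the values of donors 1, 2 and 3 were 11.51, 11.98 and 10.72 in chondrocytes, 3.93, 4.10 and 2.55 in day 28 MSCs, and 2.74, 2.75 and 2.10 in day 0 MSCs. Every chondrocyte array stood above every MSC array, and the MSC groups overlapped each other. For Bt.22987.2.A1_at the values were 10.81, 11.41 and 10.35 in chondrocytes, 3.76, 3.79 and 2.99 in day 28 MSCs, and 3.44, 3.74 and 3.44 in day 0 MSCs. Here too the chondrocytes stood apart, and the MSC groups overlapped. For Bt.22987.1.S1_at the values were 10.23, 10.19 and 9.77 in chondrocytes, 4.88, 5.21 and 5.68 in day 28 MSCs, and 4.42, 3.82 and 3.69 in day 0 MSCs. This was the PRG4 probe set of the cluster in which all 3 groups were separate, in the order day 0 MSCs, day 28 MSCs, chondrocytes.

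**Figure D1:**
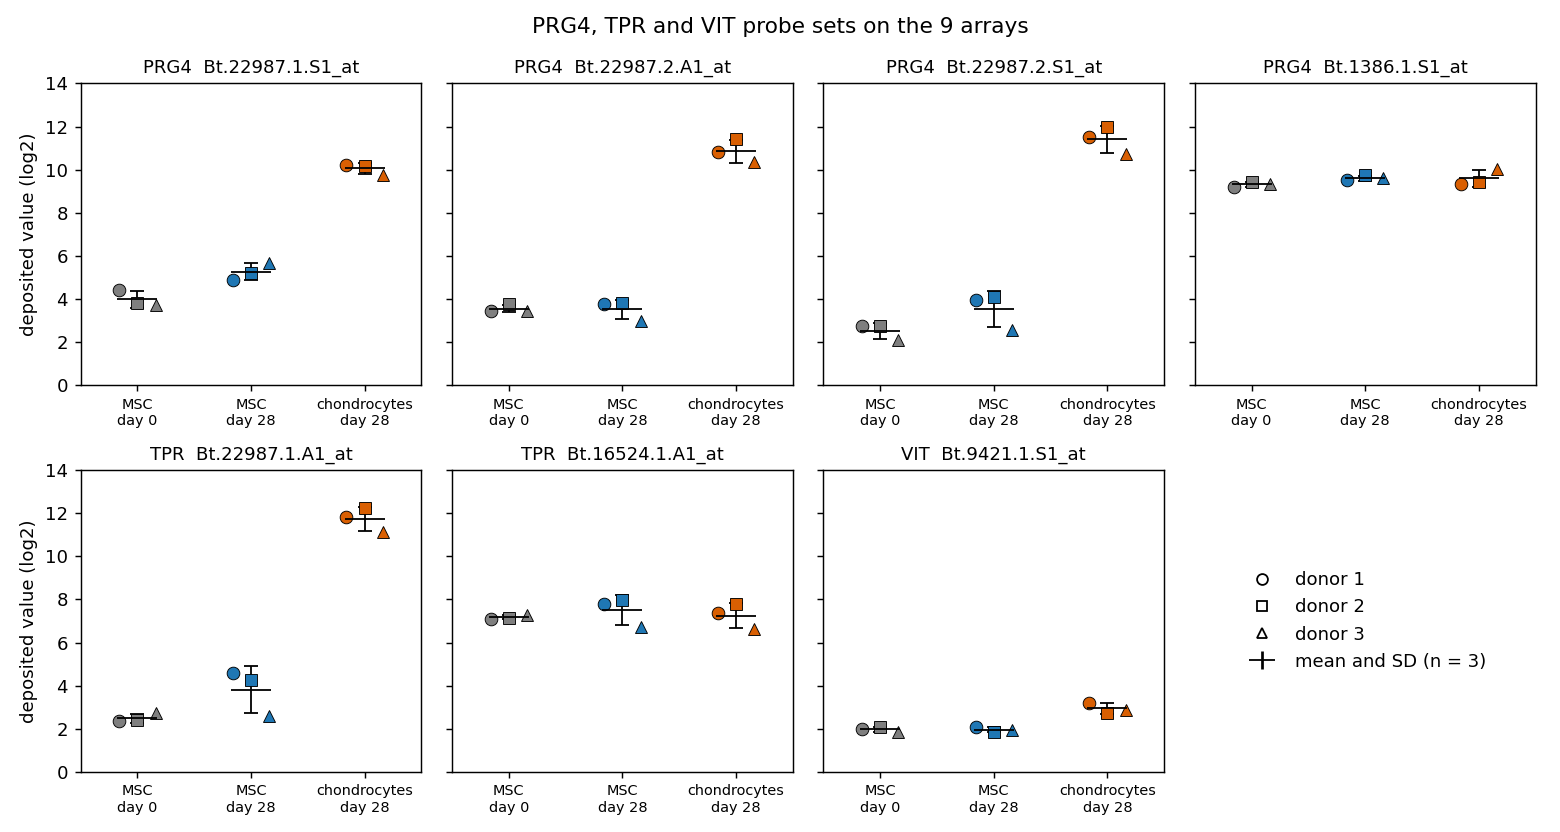
Deposited log2 values (vertical axis) of the 7 probe sets in the 3 groups (horizontal axis), 1 marker shape per donor, with the mean and SD of 3 arrays as bars. The 3 PRG4 sets and the TPR set of cluster 22987 are between 9.77 and 12.26 in chondrocytes and at or below 5.68 in MSCs. In Bt.1386.1.S1_at (PRG4) and Bt.16524.1.A1_at (TPR) the chondrocytes overlap both MSC groups, and VIT stays at the low end of the scale.

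Between chondrocytes and MSCs after the same 28 days, 3 of the 4 PRG4 probe sets and that of VIT were higher in chondrocytes and none was lower, where 6.27% of all 24016 probe sets were called higher, 4.06% lower and 10.3% in either direction (limma, Benjamini-Hochberg adjusted p under 0.05). This comparison asks what separates MSCs made to form cartilage from cells that come from it. Bt.22987.2.S1_at was higher by 7.88 ± 0.44 (standard error; adjusted p = 1.73e-05), with donor differences from 7.58 to 8.17. Bt.22987.2.A1_at was higher by 7.34 ± 0.29 (4.76e-06), and Bt.22987.1.S1_at by 4.80 ± 0.26 (1.26e-05). All 3 donors showed each of these differences. Counted from the largest rise downward over the array, these PRG4 probe sets were at ranks 3, 5 and 26. COMP encodes a glycoprotein that binds cartilage collagen and also lubricin. Its probe set of highest mean was at 13.10 in chondrocytes and 13.01 in day 28 MSCs and did not pass (0.10 ± 0.18). The second probe set of COMP differed by 0.71.

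**Figure D2:**
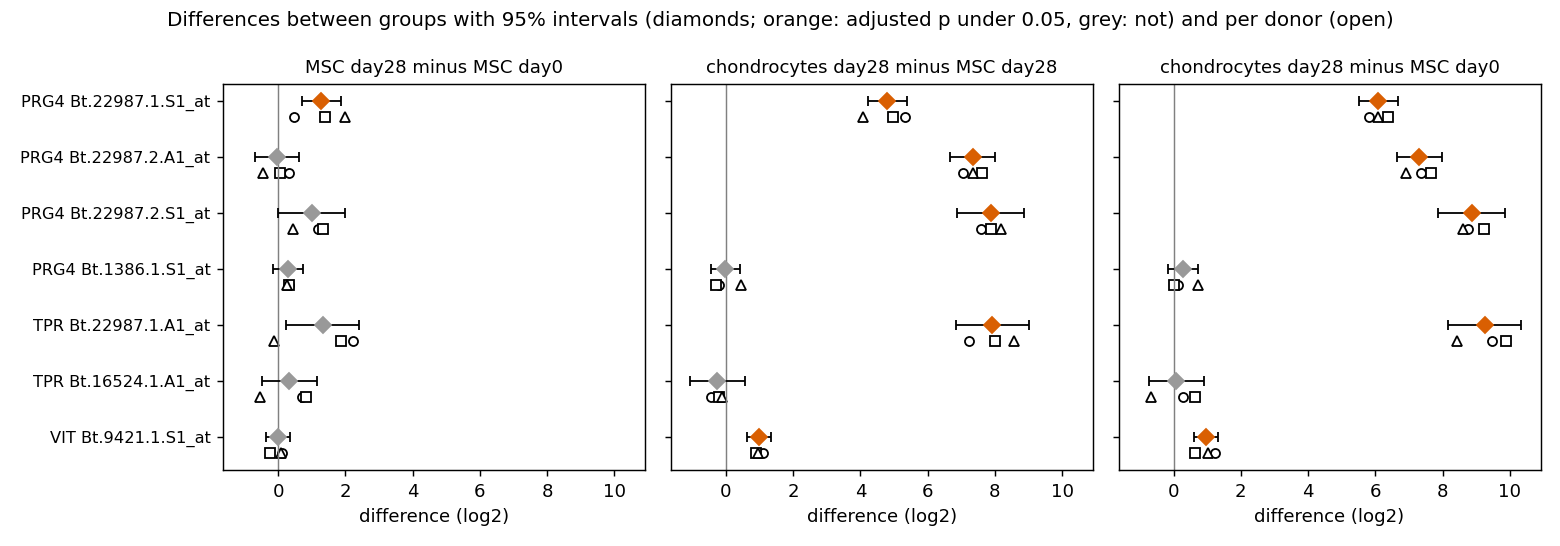
Difference between groups on the log2 scale (horizontal axis) for each probe set (vertical axis) in the 3 comparisons, as diamonds with 95% intervals of the limma model, filled orange where the adjusted p was under 0.05 and grey elsewhere, with the 3 donors as open markers below. The probe sets of cluster 22987 lie from 4.80 to 7.93 in chondrocytes minus day 28 MSCs, while those of the other PRG4 and TPR clusters lie at -0.01 and -0.25.

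Over 28 days in culture with TGF-beta3, the MSCs gained little of this signal. Of the 7 probe sets 1 passed, against 14.6% of all probe sets called higher, 15.6% lower and 30.2% in either direction. Bt.22987.1.S1_at rose by 1.28 ± 0.26 (adjusted p = 0.0049), in 3 of 3 donors, from 0.47 to 1.99. Bt.22987.2.S1_at differed by 0.99 ± 0.44 (0.126), with a 95% interval from -0.00371 to 1.99, and Bt.22987.2.A1_at by -0.03 ± 0.29 (0.955), with an interval from -0.69 to 0.64. The result for Bt.22987.2.S1_at turned on the donor and on 1 array: it passed with the donor as a block (0.00634), with arrays centred on ribosomal protein genes (1.19, 0.0407), and without MSC_day28 replicate 3 (1.48, 0.0148). The count of probe sets called was 3 with the block, 3 without that array and 4 without both arrays with low hybridisation controls (1.48 for Bt.22987.2.S1_at, 0.00506). Each of these counts includes Bt.22987.1.A1_at (TPR), whose values are a description, since TPR was chosen for it. In the same comparison COMP rose by 8.50 ± 0.18 (second probe set 4.34), FRZB by 6.55 ± 0.45 and CLU by 2.17 ± 0.37.

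Against day 0 MSCs, chondrocytes had more of all 3 PRG4 probe sets of the cluster and of VIT, where 15.1% of all probe sets were called higher, 15.9% lower and 31.0% in either direction. The difference was 8.87 ± 0.44 for Bt.22987.2.S1_at (adjusted p = 2.37e-06), 7.31 ± 0.29 for Bt.22987.2.A1_at (9.01e-07) and 6.08 ± 0.26 for Bt.22987.1.S1_at (1.06e-06). The 3 comparisons share arrays in pairs, so these values are not independent of those above.

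The remaining PRG4 probe set did not follow. Bt.1386.1.S1_at was at 9.31, 9.43 and 10.05 in the chondrocytes of donors 1, 2 and 3, at 9.50, 9.73 and 9.59 in day 28 MSCs, and at 9.19, 9.42 and 9.32 in day 0 MSCs. Chondrocytes overlapped both MSC groups. The day 28 MSC values were all above those of day 0, but the change of 0.30 ± 0.20 over culture did not pass (adjusted p = 0.296, 95% interval -0.14 to 0.74). Chondrocytes differed from day 28 MSCs by -0.01 ± 0.20 (0.985, interval -0.45 to 0.43) and from day 0 MSCs by 0.29 ± 0.20 (0.308). This probe set has the highest mean of the 4, at the 90.3 percentile of all probe sets. When a gene is read by its probe set of highest mean, PRG4 therefore shows no call, whereas the mean of its 4 probe sets was higher in chondrocytes than in day 28 MSCs by 5.002 ± 0.19 (adjusted p = 3.73e-06) and rose in MSCs by 0.64 ± 0.19 (0.0287).

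The TPR probe sets split in the same way. Bt.22987.1.A1_at, from the cluster shared with PRG4, was at 11.82, 12.26 and 11.14 in the chondrocytes of donors 1, 2 and 3, at 4.59, 4.26 and 2.59 in day 28 MSCs, and at 2.36, 2.38 and 2.72 in day 0 MSCs. The chondrocytes were far above both MSC groups, which overlapped through donor 3. It was higher in chondrocytes than in day 28 MSCs by 7.93 ± 0.48, rank 2 among all rises, and higher than in day 0 MSCs by 9.25 ± 0.48. These are given with no test, since TPR was chosen for this probe set. Over culture it differed by 1.32 ± 0.48 in MSCs, with donor differences from -0.14 to 2.23, also given with no test. This difference was 1.47 with array weights, 1.52 with centring on ribosomal protein genes and 1.94 without MSC_day28 replicate 3.

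The other TPR probe set, Bt.16524.1.A1_at, was at 7.38, 7.77 and 6.61 in chondrocytes, 7.81, 7.98 and 6.73 in day 28 MSCs, and 7.11, 7.14 and 7.28 in day 0 MSCs. All groups overlapped. Chondrocytes differed from day 28 MSCs by -0.25 ± 0.36 (adjusted p = 0.759, interval -1.07 to 0.57) and from day 0 MSCs by 0.08 ± 0.36 (0.899). The change in MSCs over culture was 0.33 ± 0.36 (0.551). Without the 2 arrays with low hybridisation controls, which hold its lowest values, it was 0.72 ± 0.17 and passed (0.0207).

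Within each gene the probe sets thus moved unequally. On each array the difference between 2 probe sets of a gene was taken and compared between groups, for 7 pairs of probe sets. The genes were picked with the split known, so these values are a description, and an exact permutation test, which cannot go below 0.1 with 3 arrays against 3, is not used. Between chondrocytes and day 28 MSCs the groups of each pair were free of overlap. Bt.1386.1.S1_at minus Bt.22987.2.S1_at differed by -7.89 between these groups, from -8.18 to -7.72 by donor. Within the cluster, Bt.22987.2.A1_at minus Bt.22987.2.S1_at differed by -0.54, and Bt.22987.1.S1_at minus Bt.22987.2.S1_at by -3.07. For TPR, Bt.16524.1.A1_at minus Bt.22987.1.A1_at differed by -8.18, from -8.67 to -7.66.

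Such a split was rare on this array. Of 2913 genes with more than 1 probe set, the median gap between the largest and smallest difference of a gene's probe sets, chondrocytes minus day 28 MSCs, was 0.298. TPR, at 8.18, and PRG4, at 7.89, had the largest and the next largest gap, and TCN2 followed at 4.93. This too is a description.

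**Figure D3:**
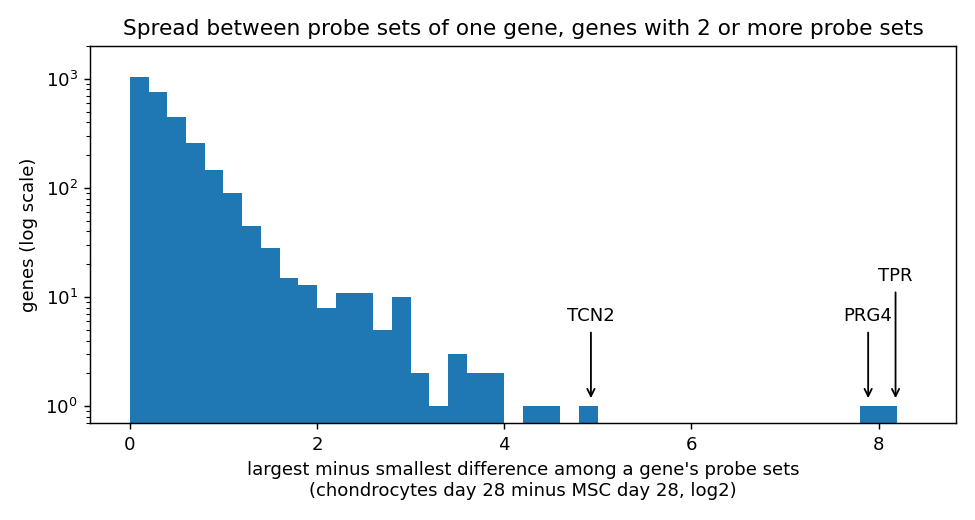
Number of genes (vertical axis, log scale) by the gap between the largest and smallest difference of their probe sets, chondrocytes minus day 28 MSCs on the log2 scale (horizontal axis), for the 2913 genes with at least 2 probe sets. PRG4 at 7.89 and TPR at 8.18 stand beyond all others, of which TCN2 is the highest at 4.93.

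Profiles over the 9 arrays put the TPR probe set of cluster 22987 with PRG4. Pearson's r of Bt.22987.1.A1_at was 0.997 with Bt.22987.2.S1_at, 0.988 with Bt.22987.2.A1_at and 0.975 with Bt.22987.1.S1_at, but 0.08 with the other TPR probe set. Among 13291 other probe sets with a single symbol, Bt.22987.1.A1_at and Bt.22987.2.S1_at were each other's nearest. Bt.1386.1.S1_at had r from 0.23 to 0.32 with the PRG4 sets of the cluster. These values describe 9 arrays in 3 groups, so they are set mostly by the gap between chondrocytes and MSCs, and arrays of a donor share a calf.

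Within groups a different grouping appeared. After each group's mean was removed, the TPR probe set Bt.16524.1.A1_at went along with Bt.22987.1.A1_at (r = 0.945), Bt.22987.2.A1_at (0.928) and Bt.22987.2.S1_at (0.904). Bt.22987.1.S1_at did not (-0.22), nor did Bt.1386.1.S1_at (-0.48). The shared part lay in the arrays of donor 3 at day 28, which are also those with low hybridisation controls: the 4 probe sets that went along were below their group mean there by 0.52 to 1.23 in MSCs and by 0.51 to 0.68 in chondrocytes. On these arrays Bt.22987.1.S1_at deviated by 0.42 and -0.29, and Bt.1386.1.S1_at by -0.02 and 0.45. At day 28, donor 3 and low hybridisation controls fall on the same arrays and cannot be told apart. The day 0 array of donor 3 had bioC at 11.63. There the TPR sets Bt.16524.1.A1_at and Bt.22987.1.A1_at deviated by 0.10 and 0.23. The PRG4 sets Bt.22987.2.A1_at and Bt.22987.2.S1_at deviated by -0.10 and -0.43. The cause was not tested. The difference between chondrocytes and day 28 MSCs was about as large without both arrays, at 7.73 ± 0.27 for Bt.22987.2.S1_at (adjusted p = 4.04e-05) and 7.62 ± 0.23 for Bt.22987.1.A1_at.

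**Figure D4:**
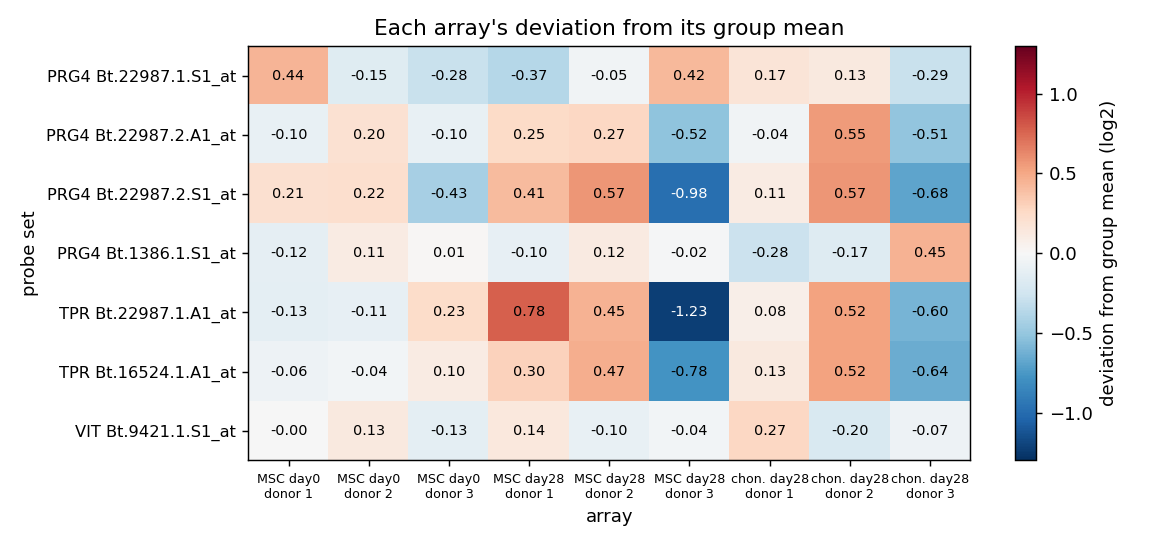
Deviation of each array (horizontal axis) from its group's mean on the log2 scale, by colour and number, for the 7 probe sets (vertical axis). Bt.22987.2.A1_at and Bt.22987.2.S1_at (PRG4) and both TPR sets are low in donor 3 of both day 28 groups, down to -1.23, while Bt.22987.1.S1_at and Bt.1386.1.S1_at (both PRG4) are not low in both.

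VIT was higher in chondrocytes, at a low signal. Its probe set was at 3.21, 2.74 and 2.87 in the chondrocytes of donors 1, 2 and 3, at 2.10, 1.86 and 1.93 in day 28 MSCs, and at 1.97, 2.10 and 1.84 in day 0 MSCs. The chondrocytes were above all MSC arrays, and the MSC groups overlapped. The difference was 0.98 ± 0.16 from day 28 MSCs (adjusted p = 0.00459) and 0.97 ± 0.16 from day 0 MSCs (0.00163), in 3 of 3 donors each. Over culture VIT differed by -0.01 ± 0.16 in MSCs (0.974), with an interval from -0.36 to 0.34. On the MSC arrays VIT stood at the 8.92 to 15.3 percentile of all probe sets, and on the chondrocyte arrays at the 28.4 to 33.8 percentile. Whether the MSC values exceed background was not tested, and a filter on signal at the 25th percentile removes this probe set.

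Genes whose profile was most like that of a member were looked up over the 9 arrays, among 7344 probe sets of other genes with a range of at least 1. For Bt.22987.2.S1_at they were B3GALT2, a galactosyltransferase (r = 0.994), CPE, a carboxypeptidase that processes peptide hormones (0.993), and the antimicrobial peptide gene CATHL5 (0.991). For Bt.22987.2.A1_at they were the serpin SERPINA14 (0.995), the alcohol dehydrogenase ADH6 (0.990) and TKTL1, a transketolase relative (0.990). For Bt.22987.1.S1_at they were SOSTDC1, a secreted antagonist of BMP and Wnt (0.993), the septin SEPTIN1 (0.992) and FAM107A (0.991). The genes nearest to Bt.22987.1.A1_at (TPR) were B3GALT2 (0.996), CATHL5 (0.993) and TMEM59L (0.989), the first 2 of them shared with PRG4. For VIT they were ACVRL1, a type I receptor of the TGF-beta family (0.987), GCAT (0.974) and a probe set of SERPINA14 (0.972). For Bt.16524.1.A1_at (TPR) they were PDCD2L (0.954), GOLGA4 (0.945) and BRWD1 (0.900). The last list shares no gene with that of the other TPR probe set.

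The other neighbours of PRG4 on chromosome 16 did not show its pattern. IVNS1ABP, TRMT1L and RNF2 lie before PRG4, and ODR4 and PDC after TPR, among genes with a named probe set. None of these 5 was called higher in chondrocytes than in day 28 MSCs: TRMT1L was lower by 0.67 (-0.67 ± 0.15, adjusted p = 0.0213), and the others ranged from -0.60 (RNF2) to 0.05 (IVNS1ABP). Around VIT on chromosome 11, none of FEZ2, CRIM1, FAM98A, STRN, GPATCH11 and EIF2AK2 passed in this comparison, with differences from -0.81 (EIF2AK2) to 0.44 (CRIM1). STRN, a scaffold protein of a phosphatase complex, rose in MSCs over culture by 3.14 ± 0.25 (4.03e-05).

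The lists that follow read each gene by its probe set of highest mean, and are set beside all 9155 genes. Of 16 other genes of the joint surface, 2 were higher in chondrocytes than in day 28 MSCs and none was lower, where 8.35% of all genes were higher and 4.81% lower. The median difference was 0.43, and -0.02 over all genes. THBS4, a matricellular thrombospondin found in tendon and cartilage, was at 11.06 against 6.04 (5.02 ± 0.32, adjusted p = 2.66e-05), and HTRA1, a secreted serine protease, was higher by 1.05 ± 0.15 (0.00228). TNC (1.04 ± 0.32, 0.0723) and OMD (0.86 ± 0.25, 0.0621) did not pass. CLU, FRZB, ERG and GDF5, which mark surface or joint-forming cells, were at -0.97 ± 0.37, 0.58 ± 0.45, 0.52 ± 0.23 and -0.19 ± 0.13, none of them called.

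Over culture in MSCs this list split: 5 genes rose and 6 fell, where 13.5% of all genes rose and 21.0% fell (median -0.18, and -0.11 over all genes). FRZB, a secreted Wnt antagonist, PRELP, a collagen-binding proteoglycan (2.27 ± 0.24), THBS4 (2.32 ± 0.32) and CLU were among those that rose. CD55, a complement regulator (-5.75 ± 0.64), SFRP4, another Wnt antagonist (-3.77 ± 0.49), and TPPP3 (-2.89 ± 0.50) were among those that fell. Against day 0 MSCs, chondrocytes were higher in 5 and lower in 3 of the 16, where 15.1% of all genes were higher and 20.9% lower, with THBS4 at 7.35 ± 0.32 and FRZB at 7.13 ± 0.45.

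**Figure D5:**
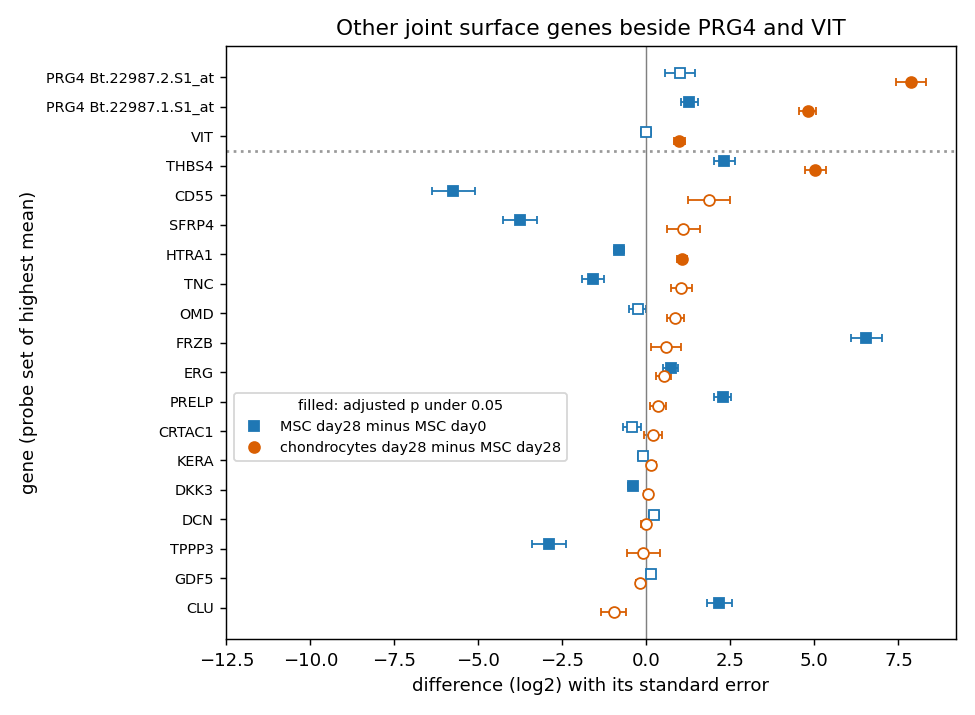
Differences on the log2 scale with their standard errors (horizontal axis) for the 16 other joint surface genes and, above the dotted line, VIT and 2 PRG4 probe sets (vertical axis), in MSCs over culture (squares) and in chondrocytes minus day 28 MSCs (circles), filled where the adjusted p was under 0.05. THBS4 at 5.02 and HTRA1 at 1.05 are the list genes called in chondrocytes minus day 28 MSCs, while 11 are called over culture. The 2 PRG4 sets are Bt.22987.1.S1_at and Bt.22987.2.S1_at, whereas each list gene is read by its probe set of highest mean. By that rule PRG4 would be Bt.1386.1.S1_at, not drawn, at -0.01 in chondrocytes minus day 28 MSCs and 0.30 over culture, neither called.

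Among 18 genes of hyaluronan and of proteins that bind or cut lubricin, 4 were higher and 1 lower in chondrocytes than in day 28 MSCs (median 0.11). Of all genes, 8.35% were higher and 4.81% lower. TNFAIP6, which loads proteins onto hyaluronan, was higher by 3.27 ± 0.34 (adjusted p = 0.00051), and its second probe set by 3.64. UGDH, which makes the sugar precursor of hyaluronan, was higher by 1.66 ± 0.19 (0.000908), TLR2, an innate receptor to which lubricin can bind, by 2.68 ± 0.45 (0.0059), and the protease gene CTSL by 2.15 ± 0.18 (0.000165), from 1.48 to 3.62 at the low end of the arrays. CTSS, also a protease gene, was lower (-1.12 ± 0.16, 0.00259). The hyaluronan receptor CD44 (-0.52 ± 0.34) and the synthase HAS2 (0.57 ± 0.17, 0.0655) did not pass. Over culture in MSCs 4 of these genes rose and 6 fell, where 13.5% of all genes rose and 21.0% fell. COMP and the hyaluronidase HYAL1 (1.25 ± 0.15) were among those that rose, and CD44 fell by 2.22. Against day 0 MSCs 6 were higher and 3 lower in chondrocytes, where 15.1% of all genes were higher and 20.9% lower.

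Of 19 genes of factors known to act on PRG4, 4 were higher in chondrocytes than in day 28 MSCs and 1 was lower (median 0.05). Over all genes, 8.35% were higher and 4.81% lower. PTHLH, a secreted peptide that restrains chondrocyte maturation, was higher by 2.39 ± 0.41 (adjusted p = 0.00609), the growth factor gene TGFB3 by 1.39 ± 0.29 (0.0168), the transcription factor gene NFATC1 by 0.88 ± 0.18 (0.014, second probe set -0.21) and the mechanosensitive channel gene TRPV4 by 0.77 ± 0.17 (0.0207). FOXO4 was lower (-0.95 ± 0.20, 0.0164). Several of these calls ended when a single array was left out, though the differences kept their sign. That of TGFB3 ended without chondrocytes_day28 replicate 1 (0.0631) or 2 (0.0681) or MSC_day28 replicate 1 (0.0542), and that of NFATC1 without chondrocytes_day28 replicate 1 (0.0502). That of TRPV4 ended without chondrocytes_day28 replicate 1 or MSC_day28 replicate 2 (both 0.0694), and that of FOXO4 without replicate 2 of chondrocytes_day28 (0.0686) or of MSC_day28 (0.0541). Without both arrays with low controls the calls of NFATC1 (0.0662), TRPV4 (0.0666) and FOXO4 (0.0684) ended too. The TGF-beta receptor genes TGFBR1 (0.08 ± 0.22) and TGFBR2 (0.41 ± 0.17) did not pass, nor did SMAD2 (0.48 ± 0.23), SMAD3 (-0.23 ± 0.19) or SMAD4 (0.01 ± 0.15). Over culture in MSCs 4 rose, where 13.5% of all genes rose and 21.0% fell. They were TRPV4 (2.66 ± 0.17), TGFBR2 (1.43 ± 0.17, second probe set 0.12), MEF2C (1.75 ± 0.39) and FOXO4 (1.02 ± 0.20). In the same cells 4 fell, PTHLH by 5.03, BMP4 by 1.84, SMAD2 by 1.38 and TGFB3 by 0.90, a call that ended in 11 of the alternative fits (0.118 without both arrays with low controls). Against day 0 MSCs 4 were higher and 4 lower in chondrocytes, where 15.1% of all genes were higher and 20.9% lower. TRPV4 was at 3.43 ± 0.17 and PTHLH at -2.63 ± 0.41.

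Of 12 enzymes that build mucin-type O-linked sugars, 4 rose and 3 fell in MSCs over culture, where 13.5% of all genes rose and 21.0% fell (median 0.53). They included GCNT1, which branches these sugars, at 3.64 ± 0.18 (second probe set -0.03), and GALNT16 and GALNT18, of the family that adds the first sugar, at 2.49 ± 0.28 and 2.23 ± 0.24, while C1GALT1, which extends it, fell by 1.40. Between chondrocytes and day 28 MSCs, where 8.35% of all genes were higher and 4.81% lower, 1 passed, GALNT18 (1.23 ± 0.24, adjusted p = 0.013, 0.0509 and 0.0577 without chondrocytes_day28 replicate 1 or 2). In chondrocytes 5 were higher and 1 lower than in day 0 MSCs, where 15.1% of all genes were higher and 20.9% lower. Of 6 measured relatives of VIT with vWA or LCCL domains, COL6A2 (1.28 ± 0.22) and COL6A1 (0.77 ± 0.16, adjusted p = 0.0169), chains of the collagen that surrounds chondrocytes, were higher in chondrocytes than in day 28 MSCs. The call of COL6A1 ended without MSC_day28 replicate 1 (0.0542), chondrocytes_day28 replicate 2 (0.063) or 3 (0.0516), or both arrays with low controls (0.0748). Over culture COL12A1 rose by 1.98 ± 0.13 and COL6A2 fell by 1.52. In chondrocytes COL12A1 and COL6A1 were higher than in day 0 MSCs. For COL6A1 this was 0.71 ± 0.16, while its other probe sets were at 0.09 and 0.11. Among 24 other genes of the nuclear pore, 4 were higher in chondrocytes than in day 28 MSCs and none was lower, beside 8.35% and 4.81% of all genes. AAAS was higher by the most (1.48 ± 0.19, second probe set 0.49). The calls of NUP62, NUP205 and SEC13 each ended when single arrays were left out, with adjusted p up to 0.0781, 0.103 and 0.125, and those of NUP62 (0.0639) and SEC13 (0.064) without both arrays with low controls. Over culture 2 rose and 4 fell, where 13.5% of all genes rose and 21.0% fell. The calls of NUP58 and NUP62 there ended when single arrays were left out, with adjusted p up to 0.0896 and 0.0897, and without both arrays with low controls (0.082 and 0.0696), and that of NUP188 with centring on ribosomal protein genes (0.0792). In chondrocytes 3 were higher and 1 lower than in day 0 MSCs, beside 15.1% and 20.9% of all genes. The calls of NUP35, NUP160 and NUP210 there ended when single arrays were left out, with adjusted p up to 0.0871, 0.0708 and 0.0702. That of NUP210 also ended without both arrays with low controls (0.0661).

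Markers of other cells that make lubricin or could be present were read beside these results. Between chondrocytes and day 28 MSCs, 8.35% of all genes were higher in chondrocytes and 4.81% lower. Of 8 markers of the synovial lining, 1 was higher in chondrocytes than in day 28 MSCs, UGDH, which is also a gene of hyaluronan synthesis. Their mean log2 value was 6.95 to 7.18 on the chondrocyte arrays, 6.36 to 6.53 on day 28 MSC arrays and 7.02 to 7.64 on day 0 MSC arrays. CD55, which marks lining fibroblasts, was at 3.64 in chondrocytes, 1.78 in day 28 MSCs and 7.53 in day 0 MSCs. HAS1 was at 3.14, 3.01 and 3.25. Against day 0 MSCs 3 of the 8 were higher in chondrocytes: PDPN (1.24 ± 0.36), UGDH (1.14 ± 0.19) and FAP (0.65 ± 0.20). Lower were 2, CD55 (-3.89 ± 0.64) and CDH11 (-1.50 ± 0.19), where 15.1% of all genes were higher and 20.9% lower. Of 4 tendon and ligament markers THBS4 alone was higher in chondrocytes than in day 28 MSCs, and TNMD and KERA were at 2.35 and 1.65. FMOD was high in every group, at 12.83 in chondrocytes, 12.70 in day 28 MSCs and 12.31 in day 0 MSCs. Against day 0 MSCs, FMOD (0.52 ± 0.12) and THBS4 were higher in chondrocytes, and none was lower. Their mean was 6.88 to 7.07 in chondrocytes, 5.40 to 5.90 in day 28 MSCs and 4.78 to 5.02 in day 0 MSCs. Of 8 markers of macrophages and blood cells CSF1R was higher (1.60 ± 0.38) and CTSS lower, with means of 4.95 to 4.98 in chondrocytes and 4.35 to 4.68 in day 28 MSCs. Of 6 endothelial markers none passed. Of 5 skeletal muscle markers TNNT3 was higher (1.00 ± 0.19), and CKM (-0.83 ± 0.17), MYL11 (-0.78 ± 0.20) and MB (-1.11 ± 0.29) were lower. The second probe sets of CKM and MYL11 were at -0.25 and -0.09. The muscle markers had means of 5.30 to 5.44 in chondrocytes and 5.47 to 5.86 in day 28 MSCs. The part of these cells in the PRG4 and VIT results was not tested.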

How the data were processed

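Bovine arrays with 1 label colour were used, 1 for each of the 9 samples. Trizol was used to take up total RNA and cDNA was primed at the poly(A) tail, amplified and labelled with biotin, per the labels' protocols; this favours 3′ ends. The authors deposited log2 values; RMA is the tool named by the submitters' processing notes. RMA gives the probe intensities of all arrays the same distribution, so a shift of most transcripts cannot be seen. The medians of the deposited values still ranged from 4.91 to 5.10 by array. Of 24128 probe sets, 112 controls were left out. The platform annotation, with symbols brought up to date in RefSeq by gene identifier, gave 13292 probe sets 1 symbol, 86 several and 10638 none.

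A linear model of 3 groups was fitted to all 24016 probe sets in limma 3.58.1 (R 4.3.3; lmFit, eBayes), with Benjamini-Hochberg adjustment in each comparison and calls under 0.05, and was tested on simulated data. Precision is limited by 3 arrays per group. Same-numbered arrays come from the same calf: after removal of group means, they correlated from 0.108 to 0.412, and those of different calves from -0.303 to 0.152. A block for the calf was an alternative, beside other scalings, signal filters, variance models and arrays left out. No pair of arrays was identical.

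Named genes were the members, the 3 genes of most similar profile for each member with a range of at least 1, the 3 nearest named neighbours on each side of PRG4 and VIT, and from each list the genes with the smallest p (up to 4 in each comparison) or with a known role. TCN2, the named cell markers, CLU and THBS4 over culture, and second examples beyond these were chosen after their values were seen. Members and lists were chosen with earlier results of these data known.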

Additional observations from a re-analysis of the deposited data

How the results depend on the processing

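Under the alternatives, 361 values of the 7 probe sets kept their direction and side of the threshold, 11 came to pass it, 21 turned in sign and 0 lost a call. Calls of PRG4 and VIT in chondrocytes against either MSC group all held in each alternative in which the probe set was tested. The same was true of Bt.22987.1.S1_at in MSCs over culture. The counts above and those that follow include Bt.22987.1.A1_at (TPR), whose values in every comparison are a description, since TPR was chosen for it. In MSCs over culture the count of probe sets called went from 1 to 3 with the donor as a replicate block or with centring on ribosomal protein genes, to 2 with a filter at the median signal or array weights, to 4 without both arrays with low hybridisation controls, and ranged from 1 to 3 when 1 array was left out. The replicate block changed no other call, of members or of 71 values of list genes. Among those list values, 73 of 1340 alternatives ended a call and 0 turned a direction.

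The sign turned where the value was near 0. In MSCs over culture Bt.22987.2.A1_at (PRG4) was at 0.17 with ribosomal centring, 0.00319 with cyclic loess, 0.050 with array weights, 0.23 without the 2 low arrays, and between -0.16 and 0.23 with 1 array left out, of which 0.07 without MSC_day0 replicate 2. VIT was at 0.19, 0.052, 0.015 and 0.0082 in these settings, and between -0.078 and 0.054 with 1 array left out. Between chondrocytes and day 28 MSCs, Bt.1386.1.S1_at (PRG4) was at 0.12 with ribosomal centring, 0.027 with cyclic loess and from -0.24 to 0.13 with 1 array left out, and Bt.16524.1.A1_at (TPR) from -0.64 to 0.072 with 1 array left out. Against day 0 MSCs the latter was at -0.041 with centring on the array median and from -0.18 to 0.40 with 1 array left out. The value of a gene by its probe set of highest mean turned to 5.002 for PRG4 and 3.84 for TPR with the mean of the probe sets, in chondrocytes minus day 28 MSCs. The pair Bt.22987.1.S1_at and Bt.22987.2.S1_at, 0.29 apart over culture, was at -0.35 without donor 3. The causes were not tested. Centring on ribosomal protein genes moved the median of all probe sets over culture from -0.06 to 0.14, and that of chondrocytes minus day 28 MSCs from -0.03 to 0.10.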
